A study of Drosophila melanogaster with 10 samples.

Results

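The 10 genes described here encode the heat-inducible small heat shock proteins of Drosophila melanogaster, their partner chaperones and the transcription factor that controls them. They are Hsp22, Hsp23, Hsp26, Hsp27, Hsp67Bc and l(2)efl (small heat shock proteins), Hsp83 (the fly Hsp90), DnaJ-1 (a J-domain cochaperone of Hsp70), stv (a BAG-domain cochaperone) and Hsf (heat shock factor). They were chosen by gene symbol from the 14292 genes to which the transcripts of the expression table could be summed, and all 10 were among the 8722 genes with a level high enough for testing. The libraries were made from polyA RNA of midguts of adult males. The overexpression libraries, called mex>PGRP-LE here, came from flies with the Dredd D44 mutation that carried UAS-PGRP-LE, a transgene for a peptidoglycan receptor, opposite mex-GAL4. The mex>+ libraries came from flies with the same Dredd D44 mutation and mex-GAL4 opposite a chromosome without the transgene. Each genotype had 5 libraries, which the series calls biological replicates, and RNA came from 20 midguts. All flies were fed only yeast, kept at 25 °C with 12 h of light and 12 h of dark, and dissected 7 days after eclosion. The mex driver acts in enterocytes, the absorptive cells, whereas RNA was taken from the whole midgut. Both genotypes carry the Dredd mutation, and the control lacks the UAS transgene altogether.

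Small heat shock proteins bind partly unfolded proteins and hold them in a state from which Hsp70 and its cochaperones can refold them. J-domain proteins deliver such clients to Hsp70 and switch on its ATPase, BAG-domain proteins release the bound nucleotide, and Hsp90 completes the folding of kinases and receptors. Heat, oxidants and unfolded proteins turn Hsf into a trimer that binds heat shock elements upstream of these genes, and most of the members have such elements.

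Values are TPM, a transcript level scaled by transcript length and to a fixed total in each library, so levels may be compared between genes. Depth cannot be read from TPM and no counting interval is given. Differences were tested with limma on log2(TPM + 1) across all 8722 genes adjusted by Benjamini-Hochberg and called at 0.05, and a log2 change is mex>PGRP-LE minus mex>+ with its standard error (SE). "Rose" and "fell" are used only for genes past that threshold. Of all genes tested, 40.1% rose and 22.8% fell, and the split of calls moved with scaling, from 63.7% upward in the deposited TPM to 50.3% after median-of-ratios rescaling. The median change of all genes was 0.09. PGRP-LE, the driven gene, stood between 4257 and 5030 TPM in mex>PGRP-LE libraries and between 35.9 and 41.8 TPM in mex>+ libraries. Dredd transcripts were present in both groups, at 30.9 to 36.0 TPM in mex>PGRP-LE and 21.9 to 26.5 TPM in mex>+ libraries.

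Of the 10 members, 2 rose (Hsp22 and Hsp67Bc) and 2 fell (stv and l(2)efl), a smaller share than the 62.9% of all genes that changed. The median log2 change of the members was 0.003, against 0.09 for all genes tested. The groups did not overlap for 1 member, l(2)efl, whereas they did not overlap for 48.3% of all genes tested. Among the small heat shock genes other than l(2)efl, the highest and lowest library of one genotype differed by a larger fold than the genotype means. For Hsp22 this fold was 2.34 with PGRP-LE and 3.44 without, against 2.18 between the means. Even so, 4 of the 5 mex>PGRP-LE libraries lay above every mex>+ library for Hsp22, Hsp23 and Hsp67Bc.

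**Figure D1:**
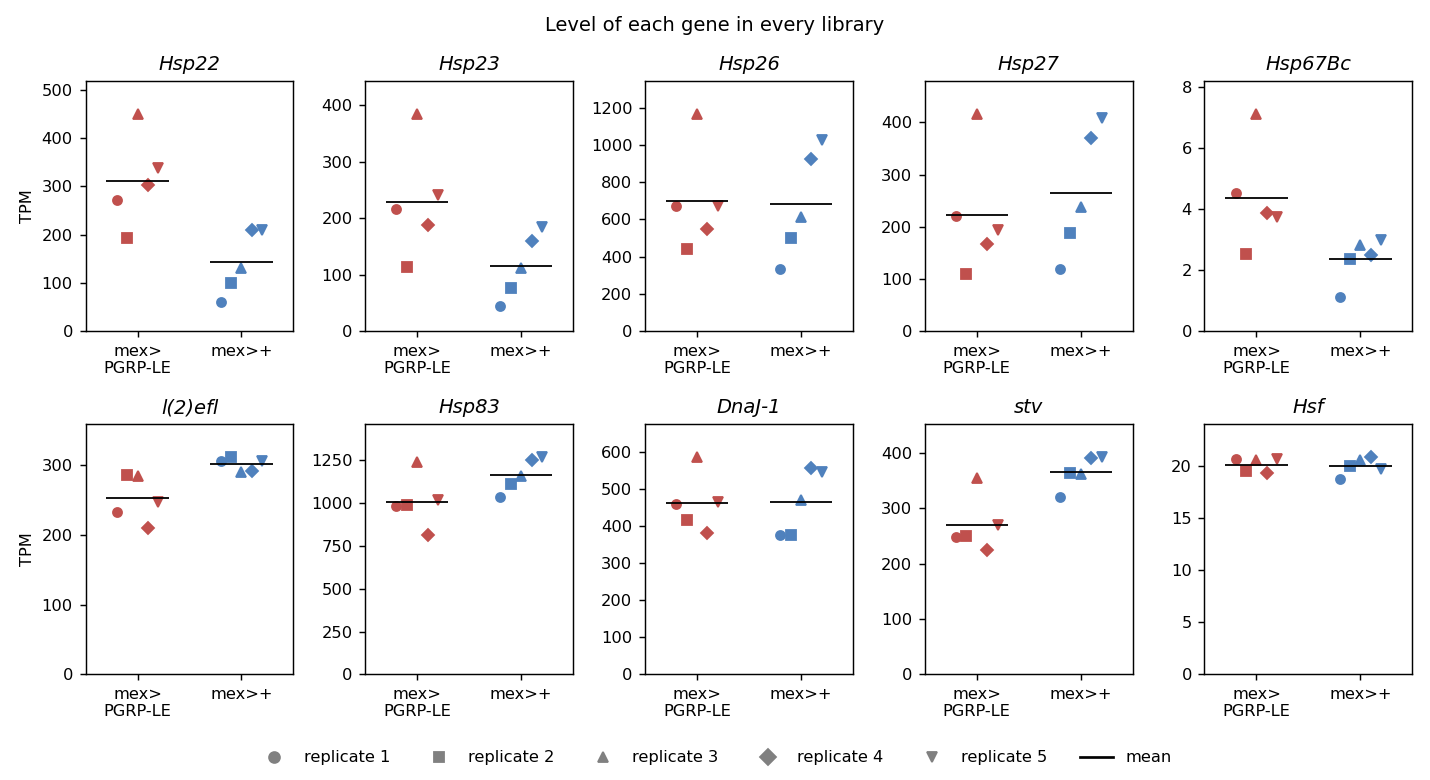
Level in TPM (vertical axes, each starting at 0) of the 10 genes in the 5 mex>PGRP-LE libraries (left of each panel) and the 5 mex>+ libraries (right), with 1 point per library, marker shape for the replicate number and a line at the mean. Hsp22 and Hsp67Bc lie higher with PGRP-LE, stv and l(2)efl lower, and replicate 3 of mex>PGRP-LE is at the top of its group for 8 of the 10 genes.

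Hsp22 encodes the small heat shock protein of mitochondria. Its level was 272, 193, 451, 304 and 338 TPM in the mex>PGRP-LE libraries, against 61.2, 101, 131, 210.1 and 210.3 TPM in the mex>+ libraries. The lowest mex>PGRP-LE library lay below the highest 2 mex>+ libraries, and the other 4 lay above every mex>+ library. The mean was 311 ± 94.6 TPM with PGRP-LE and 143 ± 66.5 TPM without (SD, n = 5 each), a fitted log2 change of 1.21 ± 0.38 (SE; limma adjusted p = 0.0197). The call held when any 1 library was left out, with log2 changes from 0.94 to 1.39. It held narrowly in some of these omissions (limma adjusted p from 0.0128 to 0.0483). Hsp22 (FBgn0001223, chromosome 3L, 9372931 to 9374964, plus strand) has a long transcript, Hsp22-RA, of 1900 bases. The neighbour CG4456 has a separate entry, CG4456-RB, with the same 1900 bases. Hsp22-RA held at most 0.256 TPM in a library, and the level of CG4456-RB is not given here. CG4456-RB also contains all 968 bases of the short transcript Hsp22-RB, and the sum over CG4456 was at most 16.8 TPM in a library.

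Hsp23, a cytosolic small heat shock protein that is also active during development, had a similar mean change that did not pass. Its level was 216, 114, 385, 188 and 241 TPM in mex>PGRP-LE libraries, against 44.3, 76.4, 112, 159 and 185 TPM in mex>+ libraries. As for Hsp22, all mex>PGRP-LE libraries but replicate 2 lay above the highest mex>+ library. The log2 change was 1.04 ± 0.45 (SE; limma adjusted p = 0.0715). It passed without mex>PGRP-LE replicate 2 (adjusted p = 0.0405) or without mex>+ replicate 5 (adjusted p = 0.0424), while over all single omissions the adjusted p lay between 0.0405 and 0.146. Hsp23 also passed with eBayes without trend and robust (adjusted p = 0.0418) and with array weights (adjusted p = 0.0423).

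Hsp26 and Hsp27, the cytosolic and the nuclear small heat shock proteins, showed no difference that the test could separate from the spread. Hsp26 was at 670, 443, 1168, 547 and 674 TPM in mex>PGRP-LE libraries and at 334, 502, 616, 927 and 1028 TPM in mex>+ libraries. Its means of 700.2 ± 279 TPM with PGRP-LE and 681 ± 290.4 TPM without (SD, n = 5 each) nearly coincide, with a fitted log2 change of 0.08 ± 0.36 (SE; limma adjusted p = 0.869), whose sign turned under median-of-ratios rescaling and quantile normalization. Hsp27 was at 220.0, 109.9, 417, 167 and 194 TPM in mex>PGRP-LE libraries and at 118, 188, 238, 370.1 and 408 TPM in mex>+ libraries. The groups span nearly the same range, and the log2 change was -0.26 ± 0.44 (SE; limma adjusted p = 0.63).

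Hsp67Bc, whose protein works with that of stv in clearing misfolded proteins by autophagy, was the least abundant member. It stood at 4.54, 2.53, 7.14, 3.88 and 3.75 TPM in mex>PGRP-LE libraries, against 1.13, 2.37, 2.83, 2.49 and 2.99 TPM in mex>+ libraries. Again mex>PGRP-LE replicate 2 alone fell within the range of the mex>+ libraries. Hsp67Bc rose by 0.65 ± 0.23 on the log2 scale (SE; limma adjusted p = 0.0282), a scale that understates changes at such low levels. The call ended without mex>PGRP-LE replicate 1, mex>+ replicate 1 or mex>+ replicate 2 (adjusted p = 0.0573, 0.0530 and 0.0522) and after rescaling to the spike-ins (adjusted p = 0.0820), while the adjusted p was at least 0.00924 over all single omissions.

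l(2)efl encodes a small heat shock protein related to alpha-crystallin B, lies on 2R (FBgn0011296, 23684651 to 23685543, minus strand) and moved in the other direction. Its level was 233, 286, 284, 210.4 and 248 TPM in mex>PGRP-LE libraries, against 306, 312, 290.0, 292 and 306 TPM in mex>+ libraries. Every mex>PGRP-LE library lay below every mex>+ library, although the nearest 2 differed by little. l(2)efl fell by 0.26 on the log2 scale (SE 0.08, limma adjusted p = 0.0123), and rescaling to the spike-ins ended the call (adjusted p = 0.0589), which all other alternatives kept.

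**Figure D2:**
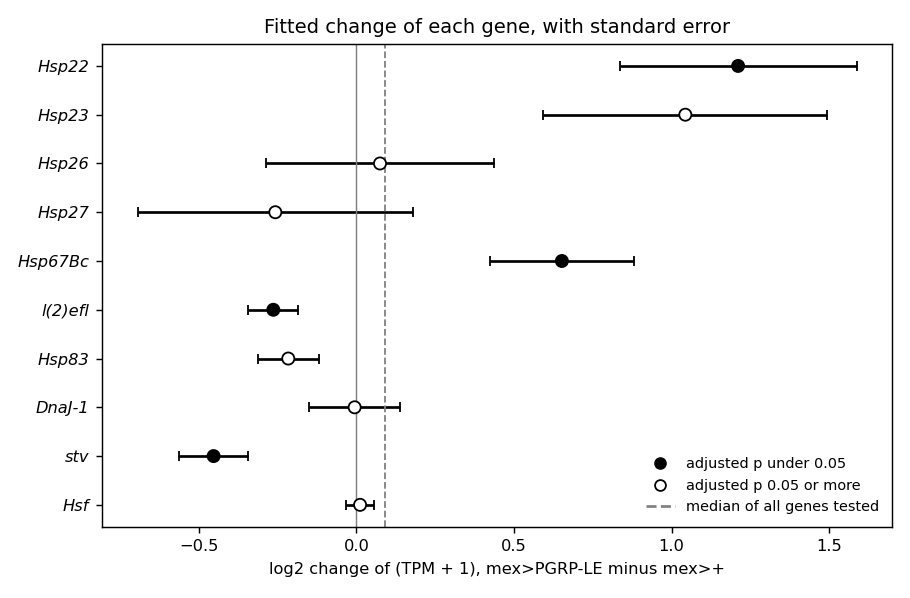
Fitted log2 change of each gene, mex>PGRP-LE minus mex>+, with its standard error from limma (horizontal bars) over 5 libraries per genotype. Filled points passed an adjusted p of 0.05, and the dashed line is the median of all genes tested (0.09). Hsp22 and Hsp67Bc lie to the right with wide errors, stv and l(2)efl to the left with narrow ones.

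The cochaperones and Hsp90 were more even between libraries than Hsp22, Hsp23, Hsp26, Hsp27 and Hsp67Bc. stv (starvin; FBgn0086708, 3L, 13477541 to 13483515, plus strand), the fly counterpart of the BAG3 cochaperone, was at 248, 250.1, 354, 224 and 270.1 TPM in mex>PGRP-LE libraries, against 320.2, 363, 361, 390.5 and 393 TPM in mex>+ libraries. Replicate 3 of mex>PGRP-LE was the only library of its group within the range of the mex>+ libraries. stv fell by 0.45 on the log2 scale (SE 0.11, limma adjusted p = 0.00328), and the call held under all alternatives, with changes between -0.56 and -0.39.

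Hsp83 was the most abundant member and DnaJ-1 the third in both genotypes. Hsp83 was at 982, 989, 1240, 817 and 1019 TPM in mex>PGRP-LE libraries, against 1034, 1111, 1162, 1250 and 1271 TPM in mex>+ libraries. Of the mex>PGRP-LE libraries, 4 lay below the lowest mex>+ library and replicate 3 lay among the highest. The log2 change of -0.22 ± 0.10 (SE) did not pass in the deposited TPM (limma adjusted p = 0.0708). Hsp83 passed as lower after median-of-ratios rescaling (adjusted p = 0.00950), quantile normalization (adjusted p = 0.0224), without mex>PGRP-LE replicate 3 (adjusted p = 0.00905) and without mex>+ replicate 1 (adjusted p = 0.0463), over a range of adjusted p up to 0.175.

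DnaJ-1, an inducible J-domain protein, was at 460.3, 418, 587, 381 and 465 TPM in mex>PGRP-LE libraries and at 377, 376, 471, 556 and 548 TPM in mex>+ libraries. The groups overlapped throughout, and the log2 change was -0.01 ± 0.14 (SE; limma adjusted p = 0.976). Hsf transcripts ranged from 19.4 to 20.7 TPM in mex>PGRP-LE and from 18.7 to 20.9 TPM in mex>+ libraries, with a fitted log2 change of 0.01 ± 0.04 (SE; limma adjusted p = 0.83), whose sign turned under 3 ways of rescaling. Hsf is regulated mainly through its protein, which these data do not measure.

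The order of the mean levels was the same in both genotypes for Hsp83, Hsp26, DnaJ-1, Hsf and Hsp67Bc and differed for the other 5 members. With PGRP-LE the mean TPM ran from Hsp83 (1009 ± 151) over Hsp26, DnaJ-1 (462 ± 78.0), Hsp22, stv (269 ± 50.05), l(2)efl (252 ± 32.9), Hsp23 (229 ± 99.5) and Hsp27 (222 ± 116) to Hsf (20.2 ± 0.653) and Hsp67Bc (4.37 ± 1.71). In mex>+ libraries it ran from Hsp83 (1166 ± 98.0) over Hsp26, DnaJ-1 (466 ± 87.8), stv (366 ± 29.3), l(2)efl (301 ± 9.60), Hsp27 (265 ± 122), Hsp22 and Hsp23 (115 ± 57.7) to Hsf (20.0 ± 0.852) and Hsp67Bc (2.36 ± 0.731; SD, n = 5 each). Hsp22 was the fourth with PGRP-LE and the seventh in mex>+ libraries. With PGRP-LE the means ± SD of all neighbours from Hsp83 to Hsp27 overlapped, whereas Hsf and Hsp67Bc stood apart in both genotypes. Within every mex>PGRP-LE library, however, Hsp83 exceeded Hsp26, Hsp26 exceeded DnaJ-1 and DnaJ-1 exceeded Hsp22. The ratio of Hsp26 to Hsp83 was 0.447 to 0.942, of Hsp26 to DnaJ-1 1.06 to 1.99 and of Hsp22 to DnaJ-1 0.461 to 0.799. The order of neighbours from Hsp22 to Hsp27 changed between mex>PGRP-LE libraries and is not resolved. In mex>+ libraries the means ± SD set Hsp83 apart from Hsp26, and stv from l(2)efl. Within every mex>+ library DnaJ-1 also exceeded stv (ratio 1.03 to 1.42) and Hsp22 exceeded Hsp23 (ratio 1.14 to 1.38). Hsp27 exceeded Hsp22 there as well (ratio of Hsp22 to Hsp27 0.515 to 0.568). The order of Hsp26 and DnaJ-1, and that of l(2)efl and Hsp27, changed between mex>+ libraries and is not resolved.

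The libraries of one genotype differed from each other in the heat shock genes more than in most genes. The SD of log2(TPM + 1) among mex>PGRP-LE libraries was 0.45 for Hsp22, 0.63 for Hsp23, 0.52 for Hsp26, 0.70 for Hsp27 and 0.44 for Hsp67Bc, against a median of 0.11 over all genes tested. Among mex>+ libraries it was 0.75 for Hsp22, 0.83 for Hsp23, 0.66 for Hsp26, 0.73 for Hsp27 and 0.36 for Hsp67Bc, again against a median of 0.11. These SDs exceeded those of at least 95.7% of all genes in each genotype. For l(2)efl the SD was 0.19 in mex>PGRP-LE libraries, above that of 82.7% of all genes, and 0.05 in mex>+ libraries. For Hsf it was 0.04 in mex>PGRP-LE and 0.06 in mex>+ libraries. DnaJ-1 had an SD of 0.23 in mex>PGRP-LE and 0.28 in mex>+ libraries, above that of 89.0% and 92.9% of all genes. The SD of stv was 0.25 in mex>PGRP-LE and 0.12 in mex>+ libraries, above that of 90.3% and 58.1% of all genes. That of Hsp83 was 0.21 in mex>PGRP-LE and 0.12 in mex>+ libraries, above that of 86.9% and 60.2% of all genes.

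The deviations ran together across the family. Replicate 3 of mex>PGRP-LE was the highest library of its group for 8 of 10 members, all but l(2)efl and Hsf, although it was the highest for 30.0% of all genes tested. Replicate 2 was the lowest for Hsp22, Hsp23, Hsp26, Hsp27 and Hsp67Bc, and for 14.9% of all genes. In mex>+, replicate 1 was the lowest library for 8 members and for 12.0% of all genes, and replicate 5 was the highest for 7 members and for 8.19% of all genes. Summed over Hsp22, Hsp23, Hsp26 and Hsp27, the level spanned 859 to 2420 TPM in mex>PGRP-LE libraries and 557 to 1831 TPM in mex>+ libraries. The labels name no batch, scan or dissection order, and whether handling or any other difference between samples moved with these deviations was not tested.

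**Figure D3:**
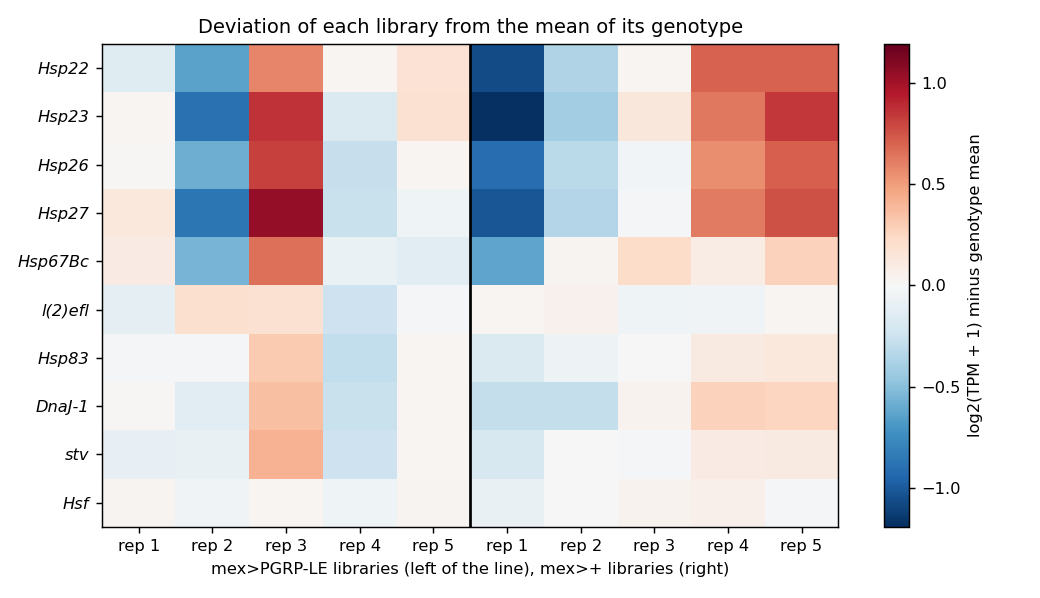
Deviation of log2(TPM + 1) from the mean of its genotype, for each gene (rows) and library (columns; the 5 mex>PGRP-LE libraries left of the line and the 5 mex>+ libraries right of it). Red is above and blue below the genotype's mean. Hsp22, Hsp23, Hsp26 and Hsp27 share 1 pattern, a weaker form of it appears in Hsp67Bc, Hsp83, DnaJ-1 and stv, and l(2)efl and Hsf lack it.

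The genes whose deviations were most like those of Hsp22, Hsp23, Hsp26 and Hsp27 were themselves heat shock genes. Likeness was measured as the root mean square difference of the deviations from the genotype mean over the 10 libraries, on the log2 scale, among the other 8721 genes, a measure and choice of genes made after the values were seen. For Hsp27, whose own deviations had a root mean square of 0.64, the nearest were Hsp26 (0.131), Hsp23 (0.132), Hsp70Bc (0.144), Hsp70Ba (0.146) and Hsp68 (0.162). For Hsp26 the nearest 5 were Hsp70Ab (0.106), Hsp27, Hsp70Bb, Hsp22 and Hsp23. The 6 Hsp70 copies, whose separate levels are uncertain because they are near-identical, summed to 1685, 1098, 2648, 1260 and 1698 TPM in mex>PGRP-LE libraries and to 651, 794, 1149, 1753 and 1741 TPM in mex>+ libraries. The mex>PGRP-LE libraries stood in the same order by this sum as by the sum of the 4 small heat shock genes, and the mex>+ libraries did so but for an exchange of the highest 2.

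Within a library, Hsp22, Hsp23, Hsp26 and Hsp27 kept more even proportions to each other than their levels. Hsp27 varied 3.79-fold between the highest and the lowest mex>PGRP-LE library and 3.45-fold among mex>+ libraries. The ratio of Hsp23 to Hsp27 TPM was 0.980, 1.04, 0.924, 1.12 and 1.24 in mex>PGRP-LE libraries, against 0.374, 0.406, 0.471, 0.430 and 0.453 in mex>+ libraries. It varied 1.34-fold with PGRP-LE and 1.26-fold without, and the groups did not overlap. The ratio of Hsp22 to Hsp27 was 1.24, 1.75, 1.08, 1.82 and 1.74 in mex>PGRP-LE libraries, against 0.517, 0.534, 0.549, 0.568 and 0.515 in mex>+ libraries, and the groups were again apart.

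Hsp22 to Hsp26 ratios lay between 0.386 and 0.556 in mex>PGRP-LE and between 0.183 and 0.227 in mex>+ libraries. Hsp23 to Hsp26 ratios lay between 0.257 and 0.358 in mex>PGRP-LE and between 0.133 and 0.182 in mex>+ libraries. By contrast, the ranges of the ratio of Hsp22 to Hsp23 overlapped, at 1.17 to 1.69 with PGRP-LE and 1.14 to 1.38 without, and those of Hsp26 to Hsp27 overlapped as well, at 2.80 to 4.03 with PGRP-LE and 2.50 to 2.82 without. A ratio shows unequal change and not which gene changed. Groups did not overlap for 4 of these 6 ratios, for 6 of the 15 ratios between the 6 small heat shock members and for 13 of the 45 ratios between all members, against 49.6% of the ratios between all genes tested that were above 0 in every library. Such separation was therefore common in these libraries, and no test was made of ratios chosen after their values were seen.

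**Figure D4:**
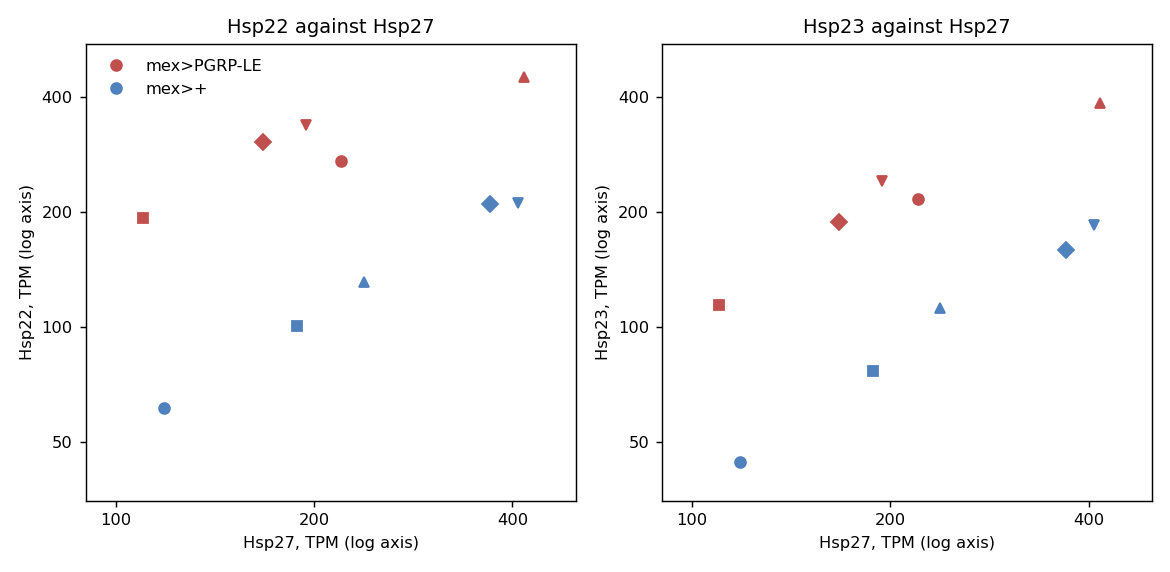
Level of Hsp22 (left panel) and Hsp23 (right panel) against that of Hsp27 in the same library, both in TPM on log axes, for 5 mex>PGRP-LE libraries (red) and 5 mex>+ libraries (blue), with marker shape for the replicate number (circle 1, square 2, upward triangle 3, diamond 4, downward triangle 5). Both genotypes run from low to high together with Hsp27, and every mex>PGRP-LE library lies above the mex>+ libraries of like Hsp27 level.

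Of the small heat shock genes, 5 lie together on 3L, in a stretch of 14.2 kb from 9371511 to 9385694 of the BDGP6.54 assembly. In order along the arm it holds Hsp67Bc (9371511 to 9372497, minus strand), CG4456, Hsp22, CG4461, Hsp26 (9376418 to 9377427, minus), Hsp67Ba, an antisense RNA gene not analysed here, Hsp23 (9381882 to 9382765, plus) and Hsp27 (9384063 to 9385694, plus). Some of these neighbours were called and others were not, and whether their changes differ from each other was not tested. CG4461, itself a predicted small heat shock gene, was at 3.75, 5.09, 4.86, 5.78 and 5.56 TPM in mex>PGRP-LE libraries, against 3.06, 3.80, 2.94, 3.42 and 4.03 TPM in mex>+ libraries, and rose by 0.43 ± 0.10 on the log2 scale (SE; limma adjusted p = 0.00339). Hsp67Ba was too low for the test, at 0.547 to 1.51 TPM in mex>PGRP-LE and 0.133 to 0.476 TPM in mex>+ libraries, ranges that do not overlap. CG4456, formerly called Hsp67Bb, ranged from 1.78 to 9.22 TPM in mex>PGRP-LE and from 4.22 to 16.8 TPM in mex>+ libraries (log2 change -0.64 ± 0.48, SE; limma adjusted p = 0.274).

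Transcript rows were tested in the same way over 15162 transcripts, of which 28.0% rose and 18.2% fell. The members have 26 transcripts in the table, of which 22 reached a mean of 1 TPM in a genotype and 21 of these were tested. Of those, 3 rose and 6 fell. Hsp22-RB and Hsp67Bc-RA rose, as their genes did. Hsp23-RB, the longer form of Hsp23, rose although the gene's sum did not pass, at 193, 105, 320, 188 and 239.9 TPM in mex>PGRP-LE libraries against 42.9, 71.8, 107, 158 and 146 TPM in mex>+ libraries (log2 change 1.04 ± 0.38, SE; limma adjusted p = 0.0425). The call of Hsp23-RB was lost on omission of any 1 library other than mex>PGRP-LE replicate 2, mex>+ replicate 4 and mex>+ replicate 5, with an adjusted p of at most 0.0944, and under each of the 3 rescalings (adjusted p up to 0.0729) and with no filter on low values (adjusted p = 0.0825). Hsp67Bc-RA kept its call without mex>PGRP-LE replicate 2, mex>+ replicate 3 or mex>+ replicate 5 and lost it on each other single omission (adjusted p up to 0.0792), after median-of-ratios or spike-in rescaling (adjusted p up to 0.0598) and with no filter (adjusted p = 0.0705). Hsp23-RA has the same start and a shorter end, and its share of the gene ran from 0.00764% to 17.0% among mex>PGRP-LE and from 0.647% to 20.9% among mex>+ libraries, so the split between these forms was not stable within a genotype.

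The fall of stv was called for some of its 7 transcripts. stv-RB and stv-RG have the same ends and differ little in length (2496 and 2499 bases), as do stv-RA and stv-RF (3279 and 3282 bases). The same holds for l(2)efl-RA and l(2)efl-RC (738 and 741 bases). The separate levels of such like forms are uncertain, and their separate calls carry that doubt. stv-RC fell to 76.8 ± 11.8 TPM in mex>PGRP-LE libraries, against 108 ± 4.95 TPM in mex>+ libraries (SD, n = 5 each), a fitted log2 change of -0.50 ± 0.09 (SE; limma adjusted p = 9.09e-04). stv-RG fell to 83.2 ± 20.6 TPM in mex>PGRP-LE libraries, against 115 ± 12.4 TPM in mex>+ libraries, and stv-RE fell to 31.2 ± 4.71 TPM in mex>PGRP-LE libraries, against 40.7 ± 4.33 TPM in mex>+ libraries. The call of stv-RG ended after spike-in rescaling (adjusted p = 0.0502) and without both libraries numbered 2 (adjusted p = 0.0563). stv-RA, below 10 TPM in every library, passed narrowly (adjusted p = 0.0439), a call that ended without any 1 library other than mex>PGRP-LE replicate 2, mex>+ replicate 1 and mex>+ replicate 4 (adjusted p up to 0.101) and under 5 of the 11 other alternatives, among them the replicate block (adjusted p = 0.0543), spike-in rescaling (adjusted p = 0.0509) and no filter on low values (adjusted p = 0.0754). stv-RB did not pass (log2 change -0.50 ± 0.19, SE; limma adjusted p = 0.0506). It passed as lower without mex>PGRP-LE replicate 3 or mex>+ replicate 1 and under 5 of the 11 other alternatives, among them median-of-ratios rescaling (adjusted p = 0.0257), quantile normalization (adjusted p = 0.0252) and the replicate block (adjusted p = 0.0475). stv-RD and stv-RF did not pass, with log2 changes of 0.03 and -0.09. Whether stv-RD differs from stv-RC in its change was not tested. l(2)efl-RA fell, at 182 to 246.2 TPM in mex>PGRP-LE and 246.2 to 268 TPM in mex>+ libraries (log2 change -0.26 ± 0.08, SE; limma adjusted p = 0.0219), and rescaling to the spike-ins ended that call (adjusted p = 0.121).

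**Figure D5:**
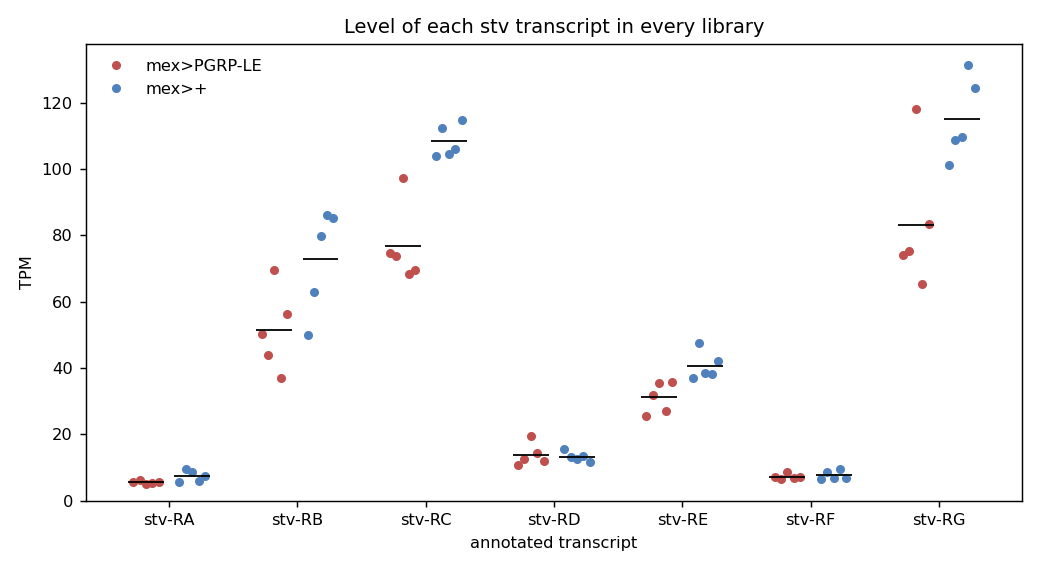
Level in TPM (vertical axis from 0) of the 7 annotated stv transcripts in the 5 mex>PGRP-LE libraries (red, left of each pair) and the 5 mex>+ libraries (blue, right), with 1 point per library and a line at the mean. stv-RC, stv-RE and stv-RG lie lower with PGRP-LE, while stv-RD and stv-RF lie at like levels.

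Of the 4 Hsf transcripts 1 fell, while the sum over the gene did not pass. Hsf-RC was at 2.82, 3.28, 3.85, 3.83 and 3.54 TPM in mex>PGRP-LE libraries, against 3.91, 4.22, 4.50, 4.86 and 4.73 TPM in mex>+ libraries, and fell by 0.29 on the log2 scale (SE 0.09, limma adjusted p = 0.0236). The highest mex>PGRP-LE library lay just below the lowest mex>+ library, and the call ended without mex>PGRP-LE replicate 1 or 2 or mex>+ replicate 4 or 5 (adjusted p up to 0.0532) and without both libraries numbered 2 (adjusted p = 0.0689). Hsf-RD, below the level for testing, was at 0.718 to 1.67 TPM in mex>PGRP-LE libraries and at 3.60e-06 to 0.606 TPM in mex>+ libraries. Hsf-RA made up 62.2% ± 6.76 of the gene with PGRP-LE and 59.8% ± 1.85 without (SD, n = 5 each). The share of Hsf-RB ran from 5.12% to 22.7% among mex>PGRP-LE and from 14.5% to 19.6% among mex>+ libraries. The split between the Hsf forms was thus not stable among mex>PGRP-LE libraries, and the call of Hsf-RC carries that doubt.

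Other chaperones were read from lists, whose counts stand beside 40.1% of all genes tested that rose and 22.8% that fell. Of 12 cochaperones of Hsp90, 10 rose and 0 fell (median log2 change 0.38, against 0.09 for all genes tested), counts that were the same under each of the 3 rescalings. Fkbp59, an immunophilin that binds Hsp90, was at 60.3 ± 2.09 TPM with PGRP-LE and 37.5 ± 1.55 TPM without (log2 change 0.67 ± 0.04). CG1416, which is related to the Hsp90 ATPase activator Aha1, was at 69.6 ± 3.84 TPM with PGRP-LE and 46.9 ± 1.71 TPM without, and p23, which stabilises the closed form of Hsp90, at 187 ± 5.06 TPM with PGRP-LE and 135 ± 4.93 TPM without (SD, n = 5 each). Hsp83 itself did not rise, as described above.

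Of 9 tested J-domain genes other than DnaJ-1, 6 rose and 0 fell (median 0.29), or 4 and 0 after rescaling to the spike-ins and 6 and 2 after the other 2 rescalings. CG7130, a J-domain gene, was at 46.2 ± 7.06 TPM with PGRP-LE and 18.6 ± 4.90 TPM without (log2 change 1.29 ± 0.17, SE), and Droj2 and Csp rose by 0.31 and 0.23. Rescaling to the spike-ins ended the call of Csp (adjusted p = 0.0695). Of 5 tested mitochondrial chaperones, 4 rose and 0 fell (median 0.38): Hsp60A was at 174.5 ± 7.45 TPM with PGRP-LE and 103 ± 2.94 TPM without, and CG11267, the Hsp10 partner of Hsp60, and Hsc70-5 rose by 0.65 and 0.38. In the Hsp70 and Hsp110 list 3 of 11 rose and 1 fell (median 0.09), against 40.1% and 22.8% of all genes tested. After median-of-ratios or spike-in rescaling 2 of 12 rose and 1 fell, and after quantile normalization 2 of 11 rose and 2 fell. The median was -0.05 after median-of-ratios rescaling. Hsp70Aa and Hsp70Bb were called higher and Hsp70Bbb lower (log2 changes 2.87, 2.08 and -1.93), values that carry the doubt about near-identical copies. Of 7 other small heat shock genes 3 were tested and 1 rose, and CG14207, the most abundant, did not pass (log2 change -0.16 ± 0.07, SE; limma adjusted p = 0.0534). CG14207 passed as lower after median-of-ratios rescaling (adjusted p = 0.00147) and quantile normalization, without mex>PGRP-LE replicate 2 (adjusted p = 0.0109) and without both libraries numbered 2 (adjusted p = 0.0257).

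In whole midguts, fewer cells of a type and less RNA per cell cannot be told apart. Counts of marker genes that rose or fell stand beside 40.1% and 22.8% of all genes tested. Markers of enterocytes were abundant in every library, summing to 8560 to 9035 TPM in mex>PGRP-LE and 9784 to 11280 TPM in mex>+ libraries over 8 genes, of which 6 rose and 2 fell. After median-of-ratios rescaling or quantile normalization 5 rose and 2 fell. The lower sum with PGRP-LE reflects Amy-p, the most abundant of the 8 genes and 1 of the 2 that fell. Amy-p had a mean of 3335 TPM in mex>PGRP-LE and 7129 TPM in mex>+ libraries. Progenitor markers summed to 95.9 to 122 TPM in mex>PGRP-LE and 35.3 to 46.0 TPM in mex>+ libraries, with 8 of 10 rising and 1 falling (0 to 2 falling over the alternatives). Visceral muscle, in which stv and l(2)efl are also expressed, gave sums of 2528 to 3189 TPM in mex>PGRP-LE and 2558 to 3180 TPM in mex>+ libraries, ranges that overlap, with 1 of 11 genes rising and 5 falling. Sums over Malpighian tubule genes ran from 5.94 to 51.5 TPM with PGRP-LE and from 27.9 to 147 TPM without (0 of 3 tested rose, 2 fell). The number falling was 0 with the replicate block, without mex>PGRP-LE replicate 2, mex>+ replicate 2 or mex>+ replicate 3 and without both libraries numbered 2, and 1 without mex>PGRP-LE replicate 1 or 3 or mex>+ replicate 1 or 5. Sums over tracheal genes ran from 19.1 to 23.1 TPM with PGRP-LE and from 26.3 to 31.3 TPM without (0 of 5 tested rose, 3 fell). Over the alternatives 2 to 4 tracheal genes fell. Sums of enteroendocrine, haemocyte and fat body genes overlapped between groups, neuron genes summed to 4.56 to 5.84 TPM in mex>PGRP-LE and 6.18 to 7.31 TPM in mex>+ libraries, and all 9 testis and germ line genes stayed below 1 TPM in every library. Of these lists all 11 enteroendocrine, 2 of 8 haemocyte, 2 of 5 fat body and 3 of 7 neuron genes were tested. Enteroendocrine genes gave 2 rising and 2 falling, haemocyte genes 1 and 1, fat body genes 1 and 0, and neuron genes 1 and 1. The counts of each of these lists changed under some alternatives. The part of these cells in the changes of the heat shock genes was not tested.

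The authors' deposited table, whose log2 fold change for PGRP-LE is 6.84 where the log2 change here was 6.85, gave 1.26 for Hsp22, 1.09 for Hsp23, 0.08 for Hsp26, -0.28 for Hsp27 and 0.82 for Hsp67Bc. In the authors' deposited table l(2)efl had -0.28, Hsp83 -0.22, DnaJ-1 -0.01, stv -0.47 and Hsf -0.0003. The p-values in the authors' deposited table, which are not stated to be adjusted, were 1.12e-04 for Hsp22, 0.0055 for Hsp23, 0.00484 for Hsp67Bc, 0.0151 for l(2)efl and 7.62e-04 for stv, and 0.091 or more for the others.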

How the data were processed

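The authors deposited TPM per transcript for 31181 rows, 92 of them ERCC spike-ins, with each library scaled to the same total. Per the submitters' processing notes, FastQC, Trim Galore, kallisto and edgeR were used with build BDGP6; versions and strand setting are not given in the sources used here. The authors also deposited log2 fold changes and p-values per gene, with RUVSeq named in the title; the log base was read from PGRP-LE. Here, 31048 of 31089 transcript rows matched the Ensembl release 115 annotation of BDGP6.54, source of all coordinates, and were summed to genes. The unmatched rows held at most 0.044% of TPM.

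Genes that reached 1 TPM in 5 or more libraries were tested as log2(TPM + 1) with limma 3.58.1 in R 4.3.3 (trend and robust), two-sided. Transcripts were tested likewise. The fit was also run on simulated data with noise drawn separately for each gene. That run could not show how the fit behaves when deviations are shared between genes, as they were here. Alternatives were pseudocounts of 0.1 and 5, other filters, 3 rescalings, plain eBayes, array weights, a replicate block and omission of each library. Omission of both libraries numbered 2 was added after seeing the data. Named were all members and their transcripts with a mean of 1 TPM in a genotype, their 3L neighbours, PGRP-LE, Dredd and the 3 smallest p of each chaperone list. Members, lists and rules were chosen with earlier results of these data known. Depth is unknown. Groups follow the labels.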

Additional observations from a re-analysis of the deposited data

Results flagged for a closer look

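In 98 groups of 5 libraries, 5 had a single library farther from the others than Dixon's criterion allows, and chance alone flags about 1 group in 20. In mex>PGRP-LE, replicate 3 stood high for stv-RC at 97.4 TPM (next 74.7), for stv-RF at 8.80 TPM (next 7.14) and for Hsp70Bbb at 84.4 TPM (next 28.7). Replicate 1 of mex>PGRP-LE stood high for Hsf-RA at 15.1 TPM (next 12.4). Replicate 5 of mex>+ stood high for Hsp23-RA at 38.6 TPM (next 4.87).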

How the results depend on the processing

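Alternatives gave 209 further values for the 10 members, of which 181 kept direction and side of the threshold. The number of members rising was 2; it was 1 with a mean of at least 5 TPM, which drops Hsp67Bc, 1 after spike-in rescaling, 3 with eBayes without trend and robust, 3 with array weights, and 1 to 3 without single libraries. The number falling was 2; it was 1 after spike-in rescaling, 3 after median-of-ratios rescaling, 3 after quantile normalization, and 2 to 3 without single libraries. Signs turned among changes that passed under no alternative. Median-of-ratios rescaling gave -0.029 for Hsp26, -0.087 for Hsf, -0.0048 for Hsp26-RA, -0.041 for stv-RD and -0.014 for Hsf-RA. Quantile normalization gave -0.054 for Hsp26, -0.044 for Hsf, -0.038 for Hsp26-RA and -0.021 for stv-RD, and spike-in rescaling -0.0072 for Hsf. Array weights gave 0.072 for DnaJ-1, 0.033 for DnaJ-1-RA and -0.017 for stv-RD. The cause was not tested. Without single libraries the changes ran from -0.15 to 0.25 for Hsp26, -0.15 to 0.25 for Hsp26-RA, -0.096 to 0.064 for DnaJ-1, -0.090 to 0.068 for DnaJ-1-RA, -0.23 to 0.027 for DnaJ-1-RB, -0.010 to 0.027 for Hsf, -0.0057 to 0.089 for Hsf-RA, -0.29 to 0.080 for Hsf-RB, -0.24 to 1.27 for Hsp23-RA and -0.088 to 0.11 for stv-RD. Libraries share replicate numbers, but only the pair numbered 2 deviated together over all genes (correlation 0.57; the others -0.23 to 0.07), so the numbers were not taken as pairs. With the replicate block 3173 genes rose and 1803 fell, against 3499 and 1991, and 2 members rose and 2 fell. TPM keep no depth, so precision rests on the 5 libraries per genotype alone.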
